A study of Bos taurus with 8 samples.

Results

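The transcripts described here belong to 8 genes named for cholesterol synthesis and its control: HMGCS1, IDI1, FDFT1, SQLE, LSS, DHCR7, INSIG1 and SREBF2. They were chosen by name, and every array probe whose accession leads to such a symbol was taken as a member. Of the 8 genes, 6 obtained a probe, with 10 probes among the 43653 on the array, and all 10 were well above background on all 8 arrays. No probe was matched to HMGCS1 or SREBF2, which are not analysed here.

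Lung RNA was measured in 4 cloned Holstein calves with respiratory failure, which died of it within 4 days of birth per the series text, and in 4 naturally conceived, healthy Holstein calves slaughtered at 4 days of age. Each calf gave 1 array of 1 colour, labelled with Cy3. Every sample, clones included, is labelled with an age of 4 days. The clones' donor cells and whether they share a genotype are not given in the sources used here. Whole lung was extracted, so fewer cells of a type and less RNA per cell cannot be told apart.

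Cells make cholesterol from acetyl-CoA through the mevalonate pathway. IDI1 and the farnesyl diphosphate synthase FDPS build the isoprenoid precursor, FDFT1 joins farnesyl units into squalene, SQLE adds the epoxide and LSS closes the ring to give lanosterol. DHCR7 acts near the end, where sterol intermediates become cholesterol. The transcription factor SREBP-2, product of SREBF2, switches on most of these genes when membrane sterol is low. INSIG1 retains the complex of SREBP and its escort SCAP in the endoplasmic reticulum when sterol is plentiful, and is itself an SREBP target. In lung, cholesterol is the main neutral lipid of the surfactant made by alveolar type II cells.

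A few facts of the arrays bear on what follows. The 4 clone arrays lay on 1 slide and the 4 normal arrays on another, each slide scanned together, so slide and group cannot be told apart. Values are log2 signals relative to the 75th percentile of the same array, and compare calves for 1 probe, never the levels of different genes. On that scale each of the 10 spike-in controls averaged higher in clones than in normal calves, with a median difference of 0.67 (log2), so a change shared by all lung transcripts is not measured. The Y-linked transcripts DDX3Y and USP9Y were both above background in 3 of 4 clones and in 0 of 4 normal calves. The sample labels give no sex, and by these transcripts sex and group cannot be fully told apart. All 6 measured markers of alveolar type II cells were well above background in every calf, and SFTPC lay between 7.45 and 7.94 in clones and between 7.65 and 7.88 in normal calves. Clone 1 and clone 3 stood apart from the other arrays: over all kept probes the lowest correlation between any 2 arrays was theirs (r = 0.907, across probes, which are not independent). The group comparison is therefore given with all calves, without clone 1 and without clone 3.

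In the cholesterol genes clone 1 stood apart from the other clones, and the clones as a group did not separate from the normal calves. Clone 1 had the highest value of all 8 calves in 6 of the 6 genes, while over all genes without missing values this was so in 26.4%. With normexp background correction and 75th percentile centring it was so in 5 of the 6. Among the normal calves, animals 3 and 4 lay above animals 1 and 2 in all 6 genes, against 19.3% of all genes, and in 5 of 6 with that same background correction. Both patterns were noticed in these values, and no test was made of them. Genes of a shared pathway are not independent, so the 6 do not count as replicates of a calf.

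SQLE, squalene epoxidase, which adds oxygen to squalene and is a rate-limiting step of the sterol branch, showed the widest gap. Its log2 values were 4.44, 1.47, 1.75 and 2.19 in clones 1 to 4, against 3.03, 2.50, 3.62 and 3.28 in normal calves 1 to 4. Clone 1 was above every normal calf and the other 3 clones were below every normal calf. Before centring, the processed signal was 31241 units in clone 1 and between 3645 and 5228 units in clones 2 to 4, against 8669 to 22641 units in normal calves. Clone 1 exceeded the next clone by 2.25 on the log2 scale, a 4.74-fold difference.

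IDI1, the isomerase that makes dimethylallyl diphosphate, followed the same arrangement. It measured 1.88, -0.67, -0.17 and -0.19 (log2) in clones 1 to 4, against 0.33, 0.19, 1.26 and 1.01 in normal calves 1 to 4. Again clone 1 was highest and the other 3 clones lay below all 4 normal calves. Its other probe gave 0.49, -2.04, -1.80 and -1.57 in the clones, against -1.08, -1.44, -0.18 and -0.57 in the normal calves, with the same order of clone 1, normal calves and clones 2 to 4. Clones 2 to 4 were all below the normal range in 14.9% of all genes, and in 2 of these 6.

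FDFT1, squalene synthase, was high in clone 1 and low in clone 3. Its log2 values were 2.77, 1.49, -0.30 and 1.27 in clones 1 to 4, against 1.57, 1.38, 2.23 and 1.78 in normal calves 1 to 4. Clone 2 lay within the normal range and clones 3 and 4 below it. All 3 FDFT1 probes put clone 1 highest and clone 3 lowest of the 8 calves.

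DHCR7, the reductase that converts 7-dehydrocholesterol to cholesterol, separated clone 1 from all normal calves by the widest margin of the 6 genes. It measured 3.06, 0.65, 0.09 and 1.51 in clones 1 to 4, against 1.26, 0.93, 1.83 and 1.60 in normal calves 1 to 4 (log2). Clone 1 was 1.23 above the highest normal calf, clones 2 and 3 were below all normal calves, and clone 4 lay among them.

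LSS, lanosterol synthase, departed from this pattern in clone 3 on its single, faint probe. Its log2 values were -3.39, -4.77, -3.79 and -4.69 in clones 1 to 4, against -4.96, -4.80, -3.90 and -4.06 in normal calves 1 to 4. Clone 3, the lowest calf for FDFT1 and DHCR7, was the second highest for LSS, only 0.40 under clone 1. The normal calves split into a higher pair, animals 3 and 4, and a lower pair, animals 1 and 2, that included the lowest value of the 8. Before centring, the LSS probe read only 44 to 137 units, where the brightest probes of the other genes read 825 units or more. The part of this low signal in the order of calves was not tested.

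INSIG1, the sterol-dependent brake on SREBP, measured 1.60, -0.67, 0.47 and 0.21 in clones 1 to 4, against -0.07, -0.28, 0.61 and 0.39 in normal calves 1 to 4 (log2). Clone 1 was highest and clone 2 lowest, with clones 3 and 4 inside the normal range. A dimmer INSIG1 probe spanned only 0.61 among clones and 0.53 among normal calves, and it put clone 1 just 0.07 above clone 3. The second INSIG1 probe thus showed much less of the gap than the brighter one. Before centring, the dimmer probe read only 25 to 46 units, against 825 to 4362 units for the brighter one. The part of this low signal in the narrower gap was not tested.

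**Figure D1:**
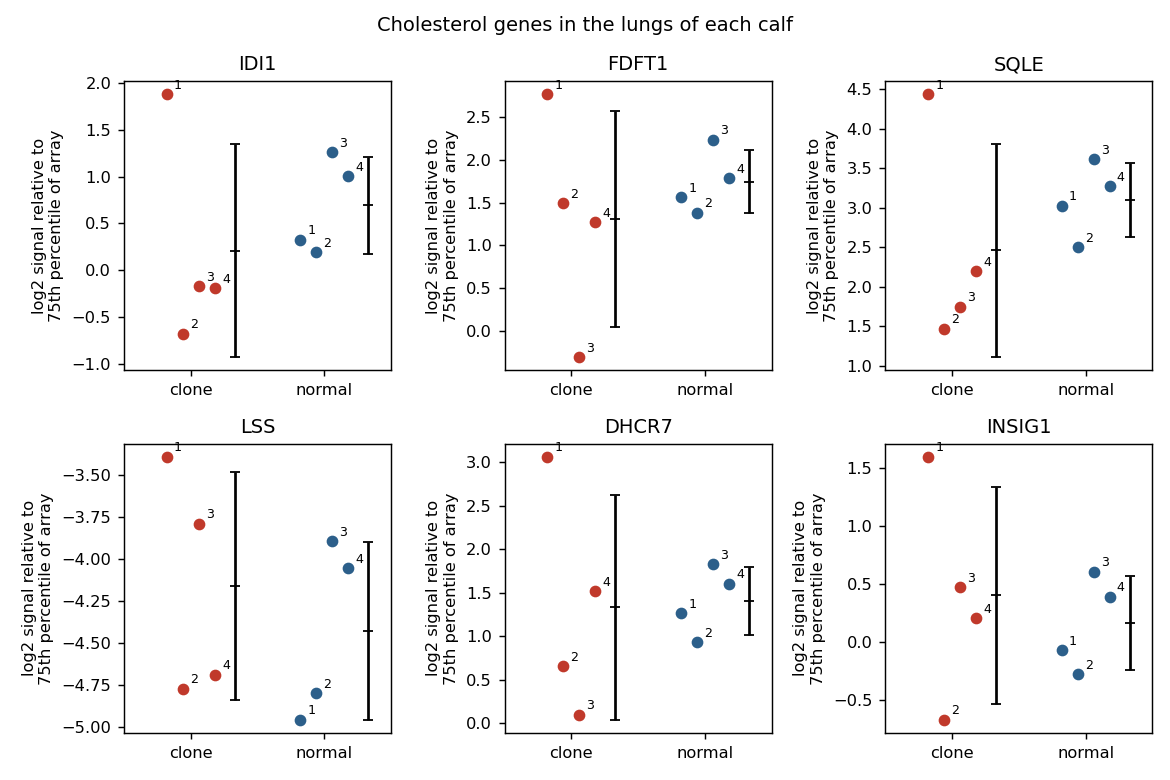
Log2 signal of the brightest probe of each gene, relative to the 75th percentile of its array, for the 4 clones (red, left) and the 4 normal calves (blue, right). Numbers name the calf and the bar at the right of each group is the mean ± SD (n = 4). Clone 1 is the highest point in all 6 panels, and clones 2 to 4 lie below every normal calf for SQLE and IDI1.

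The spread among clones was wider than among normal calves in all 6 genes. The median SD of the 6 was 1.20 in clones and 0.44 in normal calves (log2, n = 4 each), and 0.57 in clones 2 to 4. Over all genes the corresponding medians were 0.53, 0.16 and 0.41. In clones 2 to 4, FDFT1, LSS, DHCR7 and INSIG1 lay above that median of all genes, and SQLE and IDI1, with SDs of 0.37 and 0.29, lay below it.

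As a comparison of the groups, 0 of the 6 genes passed the test (limma across all 35636 kept probes, Benjamini-Hochberg adjusted p under 0.05), where 0.182% of all 9867 genes did. Likewise 0 of the 6 had an unadjusted p under 0.05, against 13.0% of all genes, and in 0 of the 6 were the groups free of overlap, against 9.83% of all genes. SQLE averaged 2.46 ± 1.35 in clones and 3.10 ± 0.47 in normal calves (log2, SD, n = 4 each). Its log2 change was -0.64 (SE 0.61, 95% interval -2.04 to 0.76, adjusted p = 0.711 by limma). IDI1 differed by -0.48 (interval -1.71 to 0.75) and FDFT1 by -0.43 (-1.72 to 0.86). DHCR7 differed by -0.08 (-1.40 to 1.25), INSIG1 by 0.24 (-0.78 to 1.27) and LSS by 0.27 (-0.61 to 1.14), the last with the opposite sign, -0.62, after normexp background correction with 75th percentile centring. The adjusted p of the 6 lay between 0.711 and 0.971. The intervals span more than a 2-fold difference in at least 1 direction for each gene, so these arrays do not bound the group difference below that size. Other probes had the sign of the brightest one, with log2 changes of -0.34 and -0.56 for FDFT1, -0.41 for IDI1 and 0.30 for INSIG1.

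Without clone 1, 5 of the 6 genes had a negative log2 change and SQLE passed the test. Clone 1 was the highest calf in all 6 genes, so leaving it out could only lower each log2 change. The direction of the shift is therefore no result. The median log2 change of the 6 was -0.25 with all clones and -0.79 with clone 1 left out, where the median of all genes was -0.02 and -0.03. Clone 1 was highest in only 26.4% of all genes, so their medians give no measure of the size of this shift. SQLE then fell by 1.30 on the log2 scale (SE 0.30, 95% interval -2.00 to -0.60, limma adjusted p = 0.0463), a 2.46-fold difference, with 3 of 3 clones below all normal calves. In that setting 3.41% of all genes were called lower and 3.74% higher, against 1 lower and 0 higher of the 6. IDI1 differed by -1.04 (SE 0.30, adjusted p = 0.0828), FDFT1 by -0.92 (adjusted p = 0.246), DHCR7 by -0.65 (adjusted p = 0.307) and INSIG1 by -0.16 (adjusted p = 0.802). LSS stayed at 0.0095 (adjusted p = 0.991). The call of SQLE was near the threshold: its adjusted p was between 0.0614 and 0.144 when any of clone 2, clone 4 or the 4 normal calves was also left out, and 0.358 after normexp with 75th percentile centring. An analysis with all 8 calves that weighted arrays by their fit called SQLE and IDI1 lower (limma adjusted p = 0.0231 and 0.0318), with weights of 0.116 for clone 1 and 0.0987 for clone 3 against 1.55 to 4.27 for the other 6 calves. That analysis called 16.0% of all genes lower and 31.3% in either direction, so the 2 of 6 are no result about these genes.

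Without clone 3, the other clone that stood apart, 2 of the 6 genes had a negative log2 change and 0 passed the test (0 also at an unadjusted p under 0.05), where 1.29% of all genes passed. SQLE then differed by -0.40 (limma adjusted p = 0.799) and IDI1 by -0.36 (adjusted p = 0.804). FDFT1 and DHCR7 had values of 0.10 and 0.34, above 0, where both were below 0 with all calves. The call of SQLE and the signs of FDFT1 and DHCR7 thus depended on which clone was left out.

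**Figure D2:**
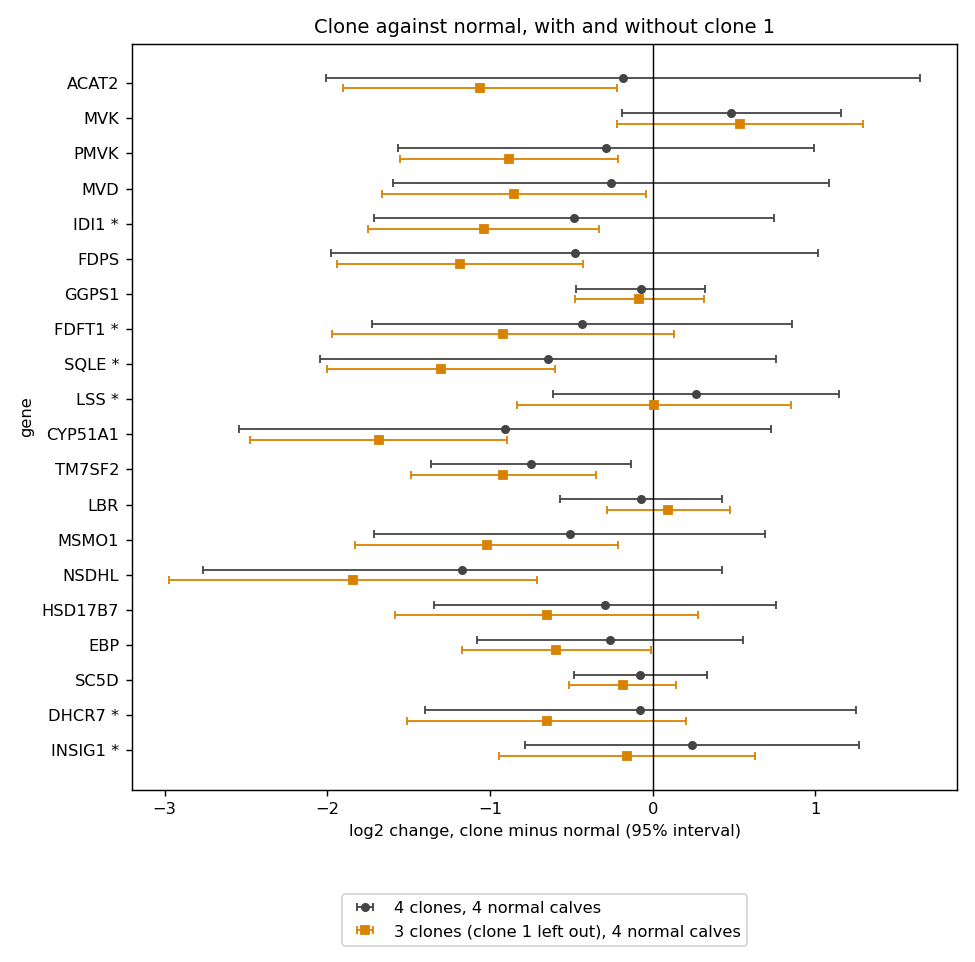
Log2 change, clone minus normal, with its 95% interval for the 6 cholesterol genes (marked *) and 14 other enzymes, from 4 clones (grey circles) and from clones 2 to 4 (orange squares), each against 4 normal calves. With clone 1 left out, SQLE lies at -1.30, against -0.64 with all clones, and LSS lies at 0.0095.

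Among the other enzymes of the pathway, clone 1 was the highest calf in most and clone 3 the lowest clone in most. All 16 other enzymes of the list were measured, 0 passed the test in either direction with 8 calves (1 had an unadjusted p under 0.05), and their median log2 change was -0.28, below 0 in 15 and above 0 in 1. Clone 1 was the highest of the 8 calves in 12 of the 16, and normal calves 3 and 4 were above 1 and 2 in 14. Counting the 22 genes together, clone 1 was highest in 18 and the normal order held in 20, and both counts were 16 after normexp with 75th percentile centring. Where clone 1 was highest among the 16, it exceeded the next clone by 0.28 to 3.24 on the log2 scale. Normal calf 3 was the highest of its group in 6 of the 6 genes and in 12 of the 16 other enzymes, and normal calf 2 the lowest in 5 and 11. The lowest clone was clone 2 in 4 of the 6 genes and clone 3 in 11 of the 16.

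By their p among the 16, TM7SF2, NSDHL and MVK led. TM7SF2, a sterol C14 reductase, measured -1.77 ± 0.52 in clones and -1.03 ± 0.19 in normal calves (log2, SD, n = 4 each) and differed by -0.75 (SE 0.27, limma adjusted p = 0.288). NSDHL, which removes carbon from the C4 position of sterols, differed by -1.17 on its brighter probe (adjusted p = 0.531) and by -0.28 on the other. MVK, mevalonate kinase, was the sole positive change, 0.48 (adjusted p = 0.536), and in this gene clones 2 and 4, at 3.08 and 3.12, lay above clone 1 at 2.56 and above all normal calves, at 1.79 to 2.65. With clone 1 left out, 1 of the 16 was called, where 3.41% of all genes were called lower. It was CYP51A1, the lanosterol demethylase, which fell by 1.68 (SE 0.34, limma adjusted p = 0.0339). Clone 1 was the highest calf for CYP51A1, and this call was not examined with a further calf left out. The 4 enzymes in which clone 1 was not highest were MVK, TM7SF2, GGPS1 and LBR. GGPS1 makes geranylgeranyl diphosphate, a branch that leaves the sterol path, and LBR is a nuclear envelope protein with sterol reductase activity. CYP51A1, GGPS1 and LBR were named after their values were seen.

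**Figure D3:**
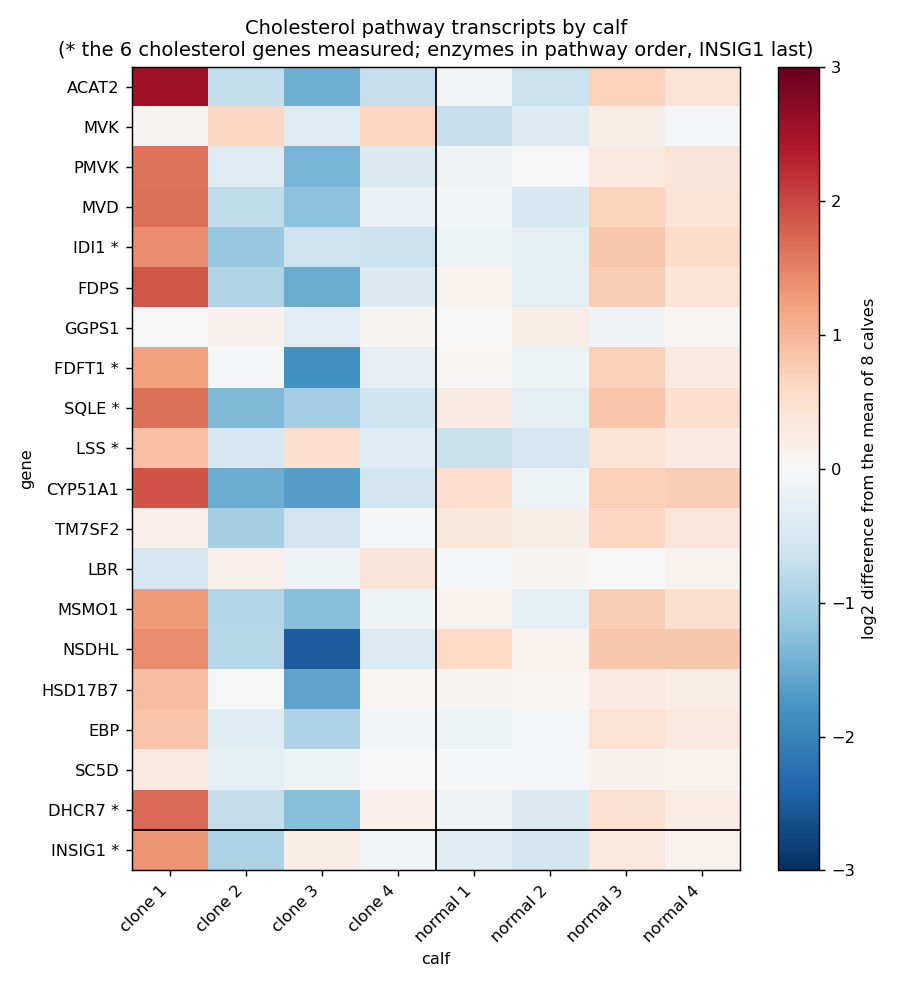
Log2 difference of each calf from the mean of all 8, by colour, for 19 enzymes in pathway order and INSIG1, with the 6 cholesterol genes marked *. Clones are left of the line and normal calves right of it. The column of clone 1 is red in most rows, clones 2 and 3 are mostly blue, and normal calves 3 and 4 are redder than 1 and 2 in 18 of 20 rows.

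The genes of SREBP processing encode the factor SREBP-1 and the proteins that escort, cleave or degrade the machinery. Of 5 measured genes, 0 passed (0 also at an unadjusted p under 0.05), their log2 changes had a median of 0.33, above 0 in 3 and below 0 in 2, and clone 1 was highest in 1. That gene was SCAP, the sterol-sensing escort of SREBP, at 2.78, 1.55, 1.72 and 1.78 in clones 1 to 4, against 2.02, 1.68, 2.14 and 2.14 in normal calves 1 to 4 (log2; named after its values were seen). MBTPS2, the site-2 protease that frees SREBP from the membrane, differed by 0.33 (adjusted p = 0.516). SREBF1, which encodes the paralog SREBP-1, measured -1.16, -0.74, 0.85 and -0.85 in clones 1 to 4, against -0.97, -0.74, -0.93 and -0.94 in normal calves 1 to 4. Clone 3 was the high calf for SREBF1 and clone 1 the lowest, and the log2 change was 0.42 with all calves (adjusted p = 0.714) and -0.02 without clone 3.

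Receptors and carriers of lipoprotein cholesterol also gave no call. Of 10 measured genes of uptake and intracellular transfer, 0 passed (1 at an unadjusted p under 0.05), their log2 changes had a median of 0.11, above 0 in 7 and below 0 in 3, and clone 1 was highest in 4. The receptor VLDLR measured -0.23, 0.44, -0.16 and 0.80 in clones 1 to 4, against -0.66, -0.72, -0.15 and -0.61 in normal calves 1 to 4. Its log2 change was 0.75 on the brighter probe (limma adjusted p = 0.291) and 0.26 on the other, and normal calf 3 overlapped the clones. SCARB1, the receptor of high density lipoprotein, differed by 0.38 (adjusted p = 0.554), with its other probes at 0.58 and 0.20.

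Of 8 measured genes of efflux and storage, 0 passed with 8 calves, 1 had an unadjusted p under 0.05, and their log2 changes had a median of 0.15, above 0 in 6 and below 0 in 2. NR1H3, the oxysterol receptor LXR-alpha that switches on cholesterol export, had values of 2.26, 2.28, 2.45 and 2.17 in clones 1 to 4, against 3.10, 3.49, 3.02 and 3.67 in normal calves 1 to 4. All 4 clones lay below all normal calves, and the groups were likewise free of overlap in 9.83% of all genes. The log2 change of NR1H3 was -1.03 (limma adjusted p = 0.103), and -1.18 and -1.09 on its other probes. The dimmer of those probes had clone 3 within the normal range. On the brightest probe clone 1 lay within the range of the other clones. Without clone 1, NR1H3 fell by 1.02 (limma adjusted p = 0.0335), in a setting where 3.41% of all genes were called lower. The export pump ABCA1, an LXR target, differed by 0.41 (adjusted p = 0.751) and the cholesterol 25-hydroxylase CH25H by -0.46 (adjusted p = 0.676).

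The genes whose pattern came nearest to the cholesterol genes were of mixed function. Likeness was measured as the root mean square difference, over the 8 calves, between the centred log2 values of a gene and the mean centred values of the 6. That mean was 1.37, -0.77, -0.68 and -0.30 in clones 1 to 4, against values of -0.16, -0.37, 0.59 and 0.31 in normal calves 1 to 4. Among 9169 other genes above background on all arrays and reported here, BBLN ranked 1 with a difference of 0.189, where the median gene had 0.765. It measured 3.00, 1.09, 1.13 and 1.42 in clones 1 to 4, against 2.01, 1.68, 2.16 and 2.14 in normal calves 1 to 4. The next 5 were the glutathione reductase GSR, the inhibitory Fc receptor FCGR2B, the propionyl-CoA carboxylase subunit PCCB, the procollagen C-proteinase enhancer PCOLCE2 and the acyl-CoA synthetase ACSL5, with differences of 0.209 to 0.229. Nearest of the synthesis pathway, the mevalonate decarboxylase MVD ranked 7 (0.232) and the sterol methyl oxidase MSMO1 ranked 13 (0.258). The other enzymes ranked ran from EBP at 35 to LBR at 6002, with PMVK at 112, FDPS at 132, CYP51A1 at 1455 and MVK at 5155. The measure takes in the size of the gaps between calves as well as their order. A gene with a like order and wider or narrower gaps therefore ranks lower. All these ranks were looked up after the values were seen.

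Markers of several cell types moved with clone 1. Of all 9856 genes without missing values, clone 1 was highest in 2604 and lowest in 2297, and the counts below are to be read beside these. The alveolar type II list was highest in clone 1 for 6 of its 6 measured genes, and its mean centred value was 0.74 in clone 1 and between -0.51 and 0.01 in the other clones, against -0.13 to -0.01 in normal calves. Its summed level ranged from 8.17 to 8.98 in clones and from 8.43 to 8.59 in normal calves (log2). A summed level is carried by the brightest probes of a list and can order calves otherwise than the mean centred value. Proliferation genes were highest in clone 1 for 5 of 5, with a summed level of 1.98 to 3.75 in clones and 1.11 to 1.55 in normal calves. They were not particular to clone 1: their median log2 change was 2.21 with all calves and 1.55 without clone 1. With all calves 0 passed, and 5 of 5 had an unadjusted limma p under 0.05, against 13.0% of all genes. So had 4 of 6 macrophage, 3 of 3 neutrophil and 2 of 5 ciliated genes, and 0 genes of the other marker lists. Endothelial and ciliated cell markers were lowest in clone 1 for 4 of 4 and 5 of 5, with an endothelial summed level of 3.41 to 5.59 in clones and 4.57 to 4.85 in normal calves. The ciliated summed level was -1.40 to 0.40 in clones, against -0.01 to 1.02 in normal calves. Of 6 macrophage genes, 1 was highest and 2 lowest in clone 1, and their summed level was 5.66 to 7.70 in clones and 7.39 to 7.98 in normal calves. That sum was lowest in clone 1, while the mean centred value was lowest in clone 4, at -1.33, against -0.31 in clone 1. Of 3 interstitial fibroblast genes, 0 were highest and 2 lowest in clone 1, with a summed level of 3.29 to 4.37 in clones and 3.89 to 3.95 in normal calves. Neutrophil genes had a summed level of -1.66 to 0.92 in clones and 1.31 to 2.47 in normal calves, and none of the 3 was highest or lowest in clone 1. Among 5 hepatocyte genes, 3 were lowest in clone 1, the summed level was 1.11 to 3.58 in clones and 1.79 to 3.04 in normal calves, and ALB and FGB were each above background in 2 of 4 clones and 3 of 4 normal calves. The part of these cell types in the clone 1 result was not tested.

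The order of normal calves 3 and 4 above 1 and 2 was found in 1 of 6 type II markers, 1 of 3 neutrophil genes and 0 of the proliferation, macrophage, endothelial, ciliated, fibroblast and hepatocyte genes. The mean spike-in level was -1.14 in clone 1, against -1.11, -0.78 and -0.87 in clones 2 to 4. It was -1.64, -1.30, -1.68 and -1.60 in normal calves 1 to 4. The part of array-level effects in these patterns was not tested.

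**Figure D4:**
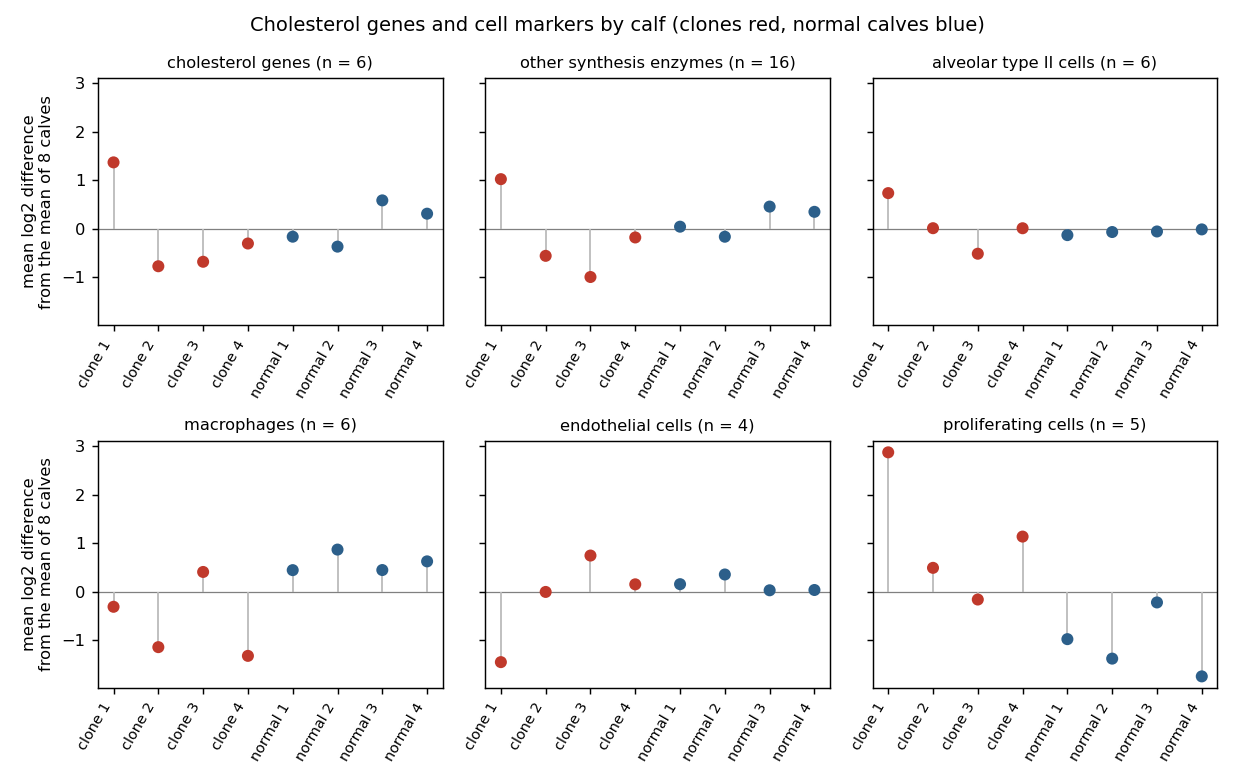
Mean log2 difference from the mean of 8 calves for the 6 cholesterol genes, 16 other synthesis enzymes and 4 marker lists, with a point for each calf, clones left in red and normal calves right in blue. Clone 1 is the high calf for both sterol lists, the type II markers (0.74) and the proliferation genes, and the low calf for endothelial markers. In both sterol lists normal calves 3 and 4 lie above 1 and 2.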

How the data were processed

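Per the file headers, the deposited scanner files were written by Agilent Feature Extraction 10.7.3.1, and the submitters' processing notes name version 10.7. The processed intensity of each spot, background-subtracted by that program, was taken as the authors deposited it, with no normalization between arrays. The authors' deposited value table holds log2 values, whose between-array step the sources used here do not state, and served as an alternative. Its results nearly equalled those of quantile normalization, with 60 probes passing and SQLE at -0.746 in both, so these settings are not separate checks. Between 2 and 21 spots per array with outlier flags were left out, of 43803, as were control spots. No spot was saturated.

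Log2 signals were centred on each array's 75th percentile, spots of a probe were averaged, and 35636 probes well above background on at least 4 of 8 arrays were kept. Accessions were matched, without versions, to RefSeq genes of ARS-UCD2.0: 23492 probes obtained 1 symbol and 20161 none. The brightest kept probe stood for a gene. Groups were compared by limma 3.58.1 in R 4.3.3 (lmFit, eBayes, group as the sole term, 2-sided), with Benjamini-Hochberg adjustment over all kept probes and a threshold of 0.05. The fit was checked on simulated data with independent probes and the same spread in both groups. Clones spread more than normal calves here, so that check does not cover unequal spread or arrays that stand apart. The number of arrays limits the precision.

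The members and gene lists were chosen with earlier results of these data known. Named were all members, the 3 genes of smallest p in each other pathway list (or all past the threshold) and the 6 nearest in pattern; a few genes that this rule names are not reported here singly or drawn, though the list counts hold them, and other pathway genes are marked in the text as chosen after their values were seen or looked up. Alternatives were other normalizations, normexp (offset 50, on the median spot signal, the mean signal not being used here), other filters, the authors' table, array weights, the mean of all probes, a robust eBayes with an intensity trend, a replicate block and leaving out each calf. Promoter motifs were not analysed here, and no coordinates are given because the array design names the build Btau_3.1. Same-numbered calves did not deviate together, and the numbers were not treated as pairs.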

Additional observations from a re-analysis of the deposited data

Results flagged for a closer look

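In 2 of 40 groups of 4 calves, taken over the 10 member probes and the 10 other pathway genes named, a single calf lay far from the other 3, and chance gives this in about 1 in 20 groups. For MBTPS2, clone 3 was low at -1.01, where the next clone was at -0.47. For SREBF1, normal calf 2 was high at -0.735, where the next was at -0.93 (log2). None of the cholesterol genes met this criterion, clone 1 included.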

How the results depend on the processing

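The 6 cholesterol genes had 0 calls by limma in each setting except array weights and leaving out clone 1. Array weights called 2 of them and 9 genes of the other pathway lists, which hold 16, 5, 10 and 8 measured genes. That setting called 31.3% of all genes, so neither count is a result about these genes. Leaving out 1 calf gave 0 to 1 calls among the 6 and 0 to 2 among the other pathway genes. The most came without clone 1, where 3.41% of all genes were called lower and 3.74% higher. Over all probes 63 passed, against 0, 25, 17, 146 and 11147 with normexp and 75th percentile centring, normexp and quantile normalization, a filter on all 8 arrays, trend and robust settings, and array weights. The setting with 0 had 2278 probes at an unadjusted p under 0.05. With a calf left out the count was 17 (without normal calf 4) to 2562 (without clone 1), with 451 without clone 3. Normexp with 75th percentile centring moved the median log2 change of all genes by -0.10. The sign turned for LSS, measured by a single faint probe, there (-0.62) and with array weights (-0.345), and for INSIG1 with array weights (-0.43). With a calf left out, INSIG1 ranged from -0.16 to 0.60, DHCR7 from -0.65 to 0.34, FDFT1 from -0.92 to 0.10 and SREBF1 from -0.022 to 0.65. The cause was not tested. With clone 1 left out, normexp with 75th percentile centring gave 0 calls among the 6 in place of 1 and LSS at -0.67, the mean of all probes gave INSIG1 at 0.018, and leaving out a further calf gave 0 to 2 calls, LSS from -0.30 to 0.19 and INSIG1 from -0.40 to 0.18. These combined settings, and the counts of calves by order, were chosen after seeing the data.

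A replicate block gave 13 changed probes and 0 calls among the 6. Deviations of same-numbered calves correlated at 0.09, 0.10, -0.20 and -0.10, and 2 of 4 clones correlated best with their own number.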
